A study of Mus musculus with 11 samples.

Results

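Complement and lectin pathway genes, 9 in all, were followed through mouse liver development. They are the lectin genes Mbl1 and Mbl2, the protease genes Masp1 and Masp2, the central component C3, and the terminal genes C6, C8a, C8b and C9. The genes were taken by name from the gene column of the array files, with control spots left out. All 9 were found among the 27962 gene names of the array, on 15 probes of which 14 passed the filter on dim probes, and all 9 were among the 16705 genes tested. In the table of normalized ratios the authors made per gene, all 9 names were found as well.

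Complement is a cascade of plasma proteins, most of which the liver makes. The lectin pathway starts when mannose-binding lectins, encoded in mice by Mbl1 and Mbl2, bind sugars on microbes and activate the proteases they carry, encoded by Masp1 and Masp2. These cleave complement proteins so that C3 is split, and a piece of C3 coats the target. Cleavage of the next component then lets C6, C7, the C8 chains and many copies of C9 assemble into the membrane attack complex, the pore that opens the membrane.

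Liver RNA came from 3 mouse samples of E14.5, 3 of E18.5, 3 of P56 and 2 of P5, the latter numbered 2 and 3, and the labels call them biological replicates. E marks the embryonic and P the postnatal day, and the labels give the embryonic stages as days 14 and 18. Untreated normal liver was the source throughout, while sex and genotype of these mice are not given in the sources used here. The study's methods name C57BL/6 mice for the embryonic livers from which cells were isolated and cultured, and no strain for the whole livers. The cell type labels read hepatoblasts for E14.5, immature hepatocytes for E18.5 and hepatocytes for P5 and P56, and the protocol names both whole livers and isolated cells, so which of the embryonic RNAs came from isolated cells is not settled. Each array held the sample in the Cy5 channel against the same commercial adult liver RNA, labelled with Cy3, in 1 dye orientation. Values below are log2(Cy5/Cy3), in which 0 means as much signal as in the adult reference and -1 means 2-fold less, so a value ranks stages for 1 gene and says nothing of one gene's level against another's.

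Each array held 43379 spots besides controls, of which 22027 to 25718 stood well above background in Cy5 on the arrays of the first 3 stages, and 23079, 16790 and 20131 on P56 replicates 1, 2 and 3. Across genes, arrays of a stage correlated at a Pearson's r of at least 0.969 before birth, of 0.901 for P5 and of 0.827 to 0.937 for P56. The hepatocyte genes checked for the tissue were measured at every stage. Alb1, for albumin, had a mean of -1.73 ± 0.225 (SD, n = 3) at E14.5 and 0.89 ± 0.291 (n = 3) at E18.5, Afp, for the fetal protein alpha-fetoprotein, 6.60 ± 0.178 at E14.5 and 0.93 ± 0.627 at P56 (n = 3 each), and Hnf4a, for a hepatocyte transcription factor, -2.25 ± 0.183 and -0.23 ± 0.139. The samples also held blood cell RNA. Erythroid markers averaged 3.17 to 3.28 per array at E14.5 and -0.24 to 0.03 at P56, where Hbb-bh1 and Epb4.2 were well above background on 0 of 3 arrays.

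**Figure D1:**
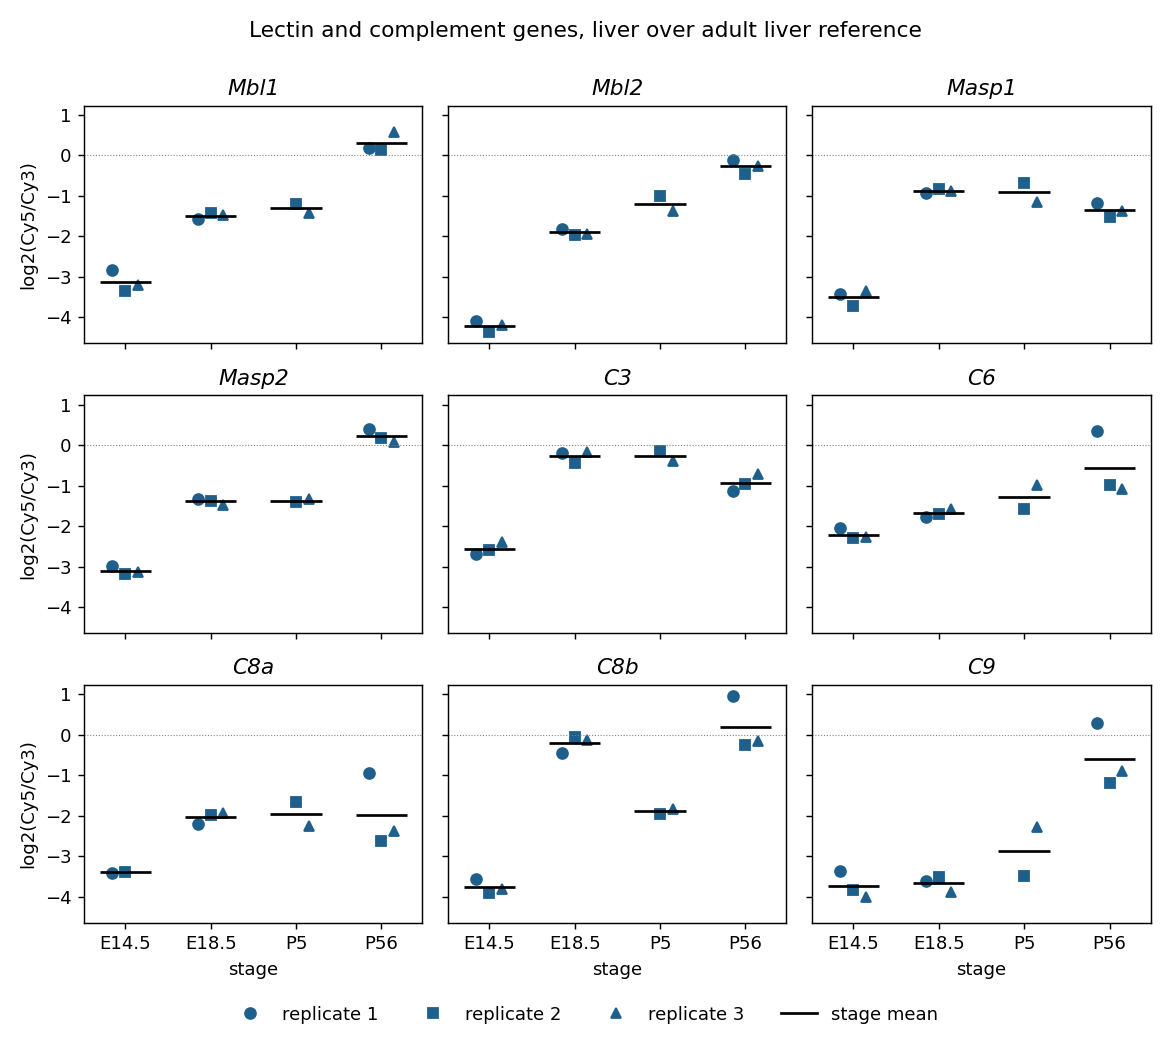
Log2(Cy5/Cy3) of the 9 genes on each of the 11 arrays by stage, with the mean of each stage as a line and the probe that stands for the gene. Between E14.5 and E18.5 the values step up with a call in 7 panels, and those of C6 step up without one. C8b alone dips at P5 to -1.96 and -1.82, and P56 replicate 1 lies above the other 2 arrays in the panels of C6, C8a, C8b and C9.

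Most of the set rose before birth. Between E14.5 and E18.5, 7 of the 9 genes rose and none fell (limma over all genes, Benjamini-Hochberg adjusted p under 0.05), where 47.4% of all tested genes were called, 24.5% as higher and 22.9% as lower. The 2 exceptions were C6 and C9, both with dim Cy5 signals at E14.5, given below. The call of C6 also hung on 1 array of another stage, since its 0.52 was called without P56 replicate 1 (adjusted p = 0.00997). The median change of the 9 genes, with C3 taken from its saturated probe, was 1.71 on the log2 scale, against -0.01 over all genes tested. Leaving C3 aside, the rises ran from 2.55-fold for C8a to 11.7-fold for C8b. C3 is counted by a probe whose reference signal saturated the scanner, and its unsaturated probe rose as well, by 1.26 (adjusted p = 1.90e-05). When ratios were also scaled to a common spread between arrays, C3, Masp1 and C8b were still called, but the unsaturated C3 probe was not, and Mbl1, Mbl2, Masp2 and C8a read 1.15, 1.65, 1.22 and 0.93 with adjusted p of 0.215, 0.097, 0.131 and 0.698. In bulk RNA, fewer cells of a type and less RNA per cell cannot be told apart, and 9 of 10 hepatocyte markers rose in the same comparison, with a median of 3.06 over all 10.

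Between E18.5 and P5 only Mbl2 rose and only C8b fell, where 13.7% of all genes were called, 7.31% as higher and 6.38% as lower, and the other 7 were not called. That background moved with single arrays, from 2286 genes called to 3764 without P5 replicate 2, 941 without P5 replicate 3, 1365 without E18.5 replicate 2 and 1272 without E18.5 replicate 3. With saturated spots left out C3 rose too, by 0.94 (adjusted p = 0.00262). From P5 to P56, Mbl1, Mbl2, Masp2, C8b and C9 rose while C3 and Masp1 fell, 5 and 2 of 9, against 21.0% and 24.7% of all genes (45.6% in either direction). Masp2 is counted by its brightest probe. Of its other probes, A_51_P448466 rose by 1.04 (adjusted p = 4.99e-05) and A_52_P569276 read -0.18 (adjusted p = 0.349). Across the whole span from E18.5 to P56, Mbl1, Mbl2, Masp2, C6 and C9 rose and C3 and Masp1 fell, again 5 and 2, against 31.3% and 33.5% (64.8% in either direction). Both falls over this span stood on 1 probe each. With saturated spots left out C3 read 0.10 (adjusted p = 0.556), and Masp1 read -0.09 (adjusted p = 0.392) as the mean over its probes and -0.11 (adjusted p = 0.722) in the ratios the authors normalized. From P5 to P56 the C3 fall was called without saturated spots, at -0.84 (adjusted p = 0.00104), while Masp1 read -0.20 (adjusted p = 0.104) over its probes. The genes called from P5 to P56 dropped from 7621 to 4722 without P5 replicate 2. The comparisons share arrays with each other. With scaling between arrays the calls of Mbl2, Masp1 and C6 were lost from E18.5 to P56, at 1.27, -0.86 and 0.69 with adjusted p of 0.112, 0.232 and 0.247, and those of C3 and Masp1 from P5 to P56. The median change of the 9 genes was 0.08 at P5, 0.92 from P5 to P56 and 1.1 from E18.5 to P56, beside 0.00, -0.02 and -0.01 over all genes. These medians take C3 from its saturated probe.

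**Figure D2:**
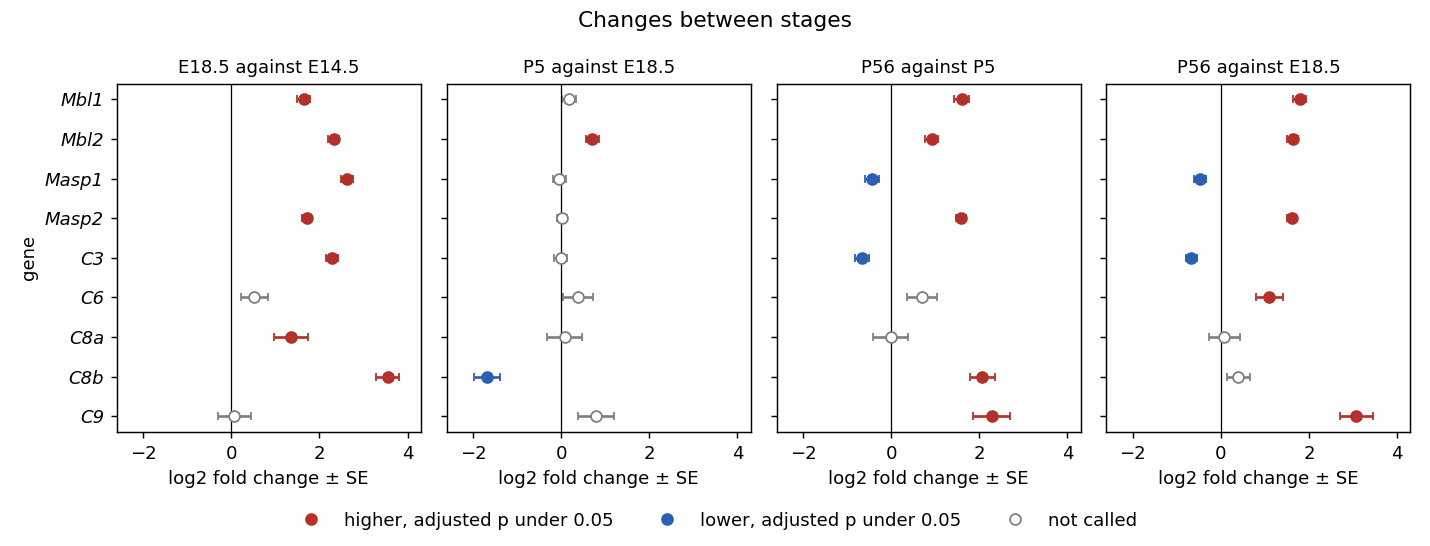
Log2 fold change of each of the 9 genes with its standard error in the 4 comparisons, red or blue where the adjusted p was under 0.05 and open where it was not, with C3 read from its saturated probe. The first panel holds 7 red points and no blue one, the second 1 of each, and the last 2 panels 5 red and 2 blue each.

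The recognition molecules stand first in the pathway. Mbl1 encodes the plasma lectin MBL-A and Mbl2 the related lectin MBL-C. The probe of Mbl1 is printed because all its values rest on these 60 bases, which lie on mm7 at chr14:38581074-38583660, plus strand, a stretch of 2587 bases, so that the probe crosses an intron of the gene.
Mbl1 probe: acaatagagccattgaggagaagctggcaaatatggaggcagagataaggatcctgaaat
The 250 bases before the RefSeq start of each lectin gene are shown because both genes rose together, from RefSeq on GRCm38.p6, Mbl1 at chr14:41151206-41151455 and Mbl2 at chr19:30232678-30232927, both on the plus strand and written 5′ to 3′. The RefSeq span of Mbl2 begins upstream of the start used here. Capitals mark the longest run of bases the pair share.
Mbl1 promoter: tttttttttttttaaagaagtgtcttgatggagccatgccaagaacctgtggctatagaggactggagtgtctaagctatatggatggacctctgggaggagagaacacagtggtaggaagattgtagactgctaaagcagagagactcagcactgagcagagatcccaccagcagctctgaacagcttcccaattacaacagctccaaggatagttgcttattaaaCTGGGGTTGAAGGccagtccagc
Mbl2 promoter: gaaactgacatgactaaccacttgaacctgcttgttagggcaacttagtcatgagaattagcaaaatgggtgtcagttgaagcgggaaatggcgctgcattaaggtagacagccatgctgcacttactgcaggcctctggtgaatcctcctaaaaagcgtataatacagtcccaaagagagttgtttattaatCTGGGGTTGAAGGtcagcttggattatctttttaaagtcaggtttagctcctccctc
The shared run is 13 bases long and starts 23 bases before the start of Mbl1 and 57 bases before that of Mbl2. Read on either strand, it was found in 3 of 32851 RefSeq promoter windows of this length. A shared run is a description of the letters, not of a binding site.

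Mbl1 read -2.84, -3.35 and -3.19 on the E14.5 arrays, -1.57, -1.42 and -1.47 by E18.5, -1.19 and -1.41 on the P5 arrays, and 0.19, 0.13 and 0.57 on those of P56. No stage overlapped another, P5 lay just above E18.5, and the P56 arrays were the only ones above the adult reference. From E14.5 to E18.5 Mbl1 rose 3.11-fold (log2 change 1.64, SE 0.148, limma adjusted p = 3.35e-06), and from P5 to P56 it rose 3.04-fold (1.60, SE 0.165, adjusted p = 1.34e-05). Between E18.5 and P5 it was not called, with 0.18 (SE 0.165, adjusted p = 0.506).

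Mbl2 climbed at every step. Its values were -4.10, -4.37 and -4.19 at E14.5, -1.81, -1.96 and -1.94 by E18.5, -1.0 and -1.38 on the P5 arrays, and -0.11, -0.46 and -0.25 on those of P56, so no stage overlapped the next. The change was 4.99-fold up to E18.5 (2.32, SE 0.128, adjusted p = 5.74e-08), 1.64-fold from there to P5 (0.71, SE 0.143, adjusted p = 0.00778) and 1.89-fold from P5 to P56 (0.92, SE 0.143, adjusted p = 0.000305). The step to P5 turned to -0.74 when ratios were also scaled between arrays, and with median centring of the arrays the step from P5 to P56 was 0.54 with an adjusted p of 0.0595.

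The proteases come next in the pathway. Masp1 encodes the lectin-bound protease MASP-1, and by alternative ends of the transcript also MASP-3 and a short protein without protease domain. Masp2 encodes MASP-2, the protease that cleaves the next components, and in a short transcript the small protein MAp19. Masp1 had 4 probes and Masp2 had 3, at different places of each gene. Masp1 lies on the minus strand of chromosome 16 (mm7), with its brightest probe, A_51_P472879, at chr16:23108101-23108160, A_52_P216226 at chr16:23110952-23111011 and A_52_P247185 at chr16:23127084-23127143. The probe A_52_P54274 was dropped as too dim. Masp2 lies on the plus strand of chromosome 4. The array annotation assigns its brightest probe, A_51_P448464 at chr4:147593862-147593921, and A_51_P448466 at chr4:147593232-147593291 to transcript variant 2, and A_52_P569276 at chr4:147604554-147604613 to transcript variant 1. The probes were not placed on exons here, so a probe assigned to one variant may also read the other, and the names below are only those of the annotation. One of the less bright probes of each gene is printed, since the values below differ between probes.
Masp1 probe A_52_P216226: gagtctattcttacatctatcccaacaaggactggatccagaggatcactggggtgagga
Masp2 probe A_51_P448466: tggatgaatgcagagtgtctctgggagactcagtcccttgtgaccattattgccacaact

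Masp2 by its brightest probe read -2.99, -3.17 and -3.14 at E14.5, -1.32, -1.37 and -1.48 by E18.5, -1.41 and -1.33 on the P5 arrays, and 0.39, 0.17 and 0.08 on those of P56. It thus stood on 3 levels, with E18.5 and P5 overlapping. The rise was 3.27-fold between E14.5 and E18.5 (1.71, SE 0.102, adjusted p = 1.07e-07) and 3.00-fold between P5 and P56 (1.58, SE 0.114, adjusted p = 8.15e-07), with 0.02 (SE 0.114, adjusted p = 0.931) between them.

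The variant 1 probe of Masp2 took another course. It read -3.80, -4.17 and -4.06 at E14.5, -1.15, -1.12 and -1.04 by E18.5, -0.61 and -0.38 on the P5 arrays, and -0.44, -0.84 and -0.73 on those of P56. On E14.5 it was well above background on 2 of 3 arrays. Its Cy5 signals there were 47.4, 60.4 and 59.1 before background correction, near the 43.7, 43.4 and 44.6 of the dropped Masp1 probe. The size of its change from E14.5 is thus uncertain. This probe rose 7.49-fold up to E18.5 (2.90, SE 0.129, adjusted p = 1.21e-08 over all probes) and 1.53-fold from there to P5 (0.61, SE 0.144, adjusted p = 0.0173), and then read -0.18 (SE 0.144, adjusted p = 0.349) from P5 to P56, where the brightest probe rose. The second variant 2 probe went with the brightest one, at 1.01 (SE 0.113, adjusted p = 1.92e-05) up to E18.5 and 1.04 (SE 0.126, adjusted p = 4.99e-05) from P5 to P56. With median centring it lost its later calls, at 0.15 (adjusted p = 0.566) from P5 and 0.11 (adjusted p = 0.64) from E18.5 to P56, and the variant 1 probe became a called fall from P5 to P56, at -1.06 (adjusted p = 0.00275). The step of the variant 1 probe to P5 was then 0.68 (adjusted p = 0.116), and with scaling between arrays 0.15 (adjusted p = 0.696). The step of the variant 1 probe to P5 lost its call without P5 replicate 3 (0.50, adjusted p = 0.15), without E18.5 replicate 1 (0.59, adjusted p = 0.0507) and without E18.5 replicate 2 (0.61, adjusted p = 0.0534). Of all 23526 probes kept, 44.5% were called between E14.5 and E18.5, 11.9% from there to P5, 42.0% from P5 to P56 and 62.5% from E18.5 to P56.

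The difference between probes was tested by fitting, over all genes with several probes kept, the brightest probe minus each other probe. From P5 to P56 the brightest Masp2 probe changed by 1.76 more than the variant 1 probe (SE 0.128, adjusted p = 7.22e-07), and from E14.5 to E18.5 by 1.20 less (-1.20, SE 0.114, adjusted p = 5.84e-06). The size of the latter rests on the dim E14.5 signals of the variant 1 probe. Such differences were common on this array, with 32.8% of 6821 probe pairs called from P5 to P56, 26.9% from E14.5 to E18.5 and 50.5% from E18.5 to P56. Between the 2 variant 2 probes the difference was 0.55 (SE 0.116, adjusted p = 0.00274) from P5 to P56, in size and not in direction. From E18.5 to P56 the variant 1 probe rose by 0.44 (SE 0.129, adjusted p = 0.0109), which was 1.17 less than the brightest probe (SE 0.114, adjusted p = 2.70e-06). The rise itself read -0.38 (adjusted p = 0.146) with median centring and 0.13 (adjusted p = 0.623) with scaling between arrays.

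**Figure D3:**
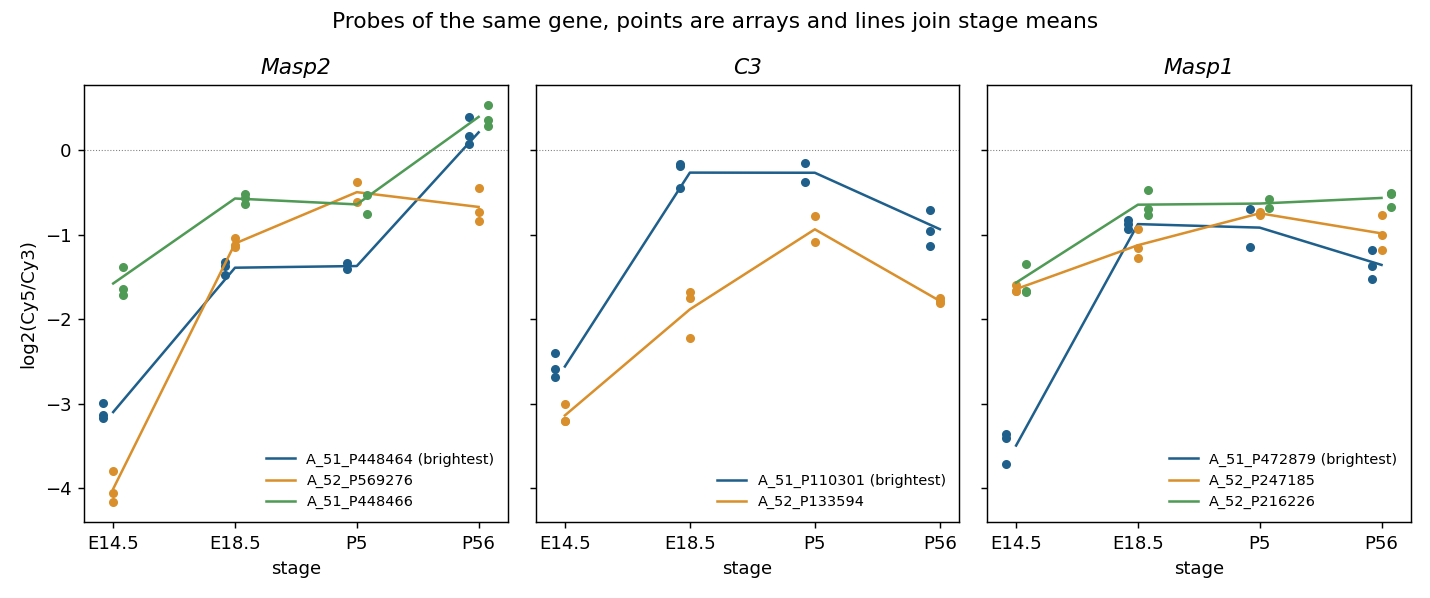
Log2(Cy5/Cy3) of every kept probe of Masp2, C3 and Masp1 by stage, with points for arrays and lines joining the stage means. In Masp2 the variant 1 probe A_52_P569276 ends at a mean of -0.67 at P56 while both variant 2 probes end at 0.21 and 0.40.

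Masp1 by its brightest probe had its step at E18.5 and none upward after it. The arrays read -3.41, -3.72 and -3.36 at E14.5, -0.93, -0.82 and -0.87 by E18.5, -0.69 and -1.14 on the P5 arrays, and -1.18, -1.52 and -1.37 on those of P56. The first step was 6.17-fold (2.62, SE 0.140, adjusted p = 4.39e-08), the second was -0.04 (SE 0.156, adjusted p = 0.892), and P56 was lower than E18.5 by 1.4-fold (-0.48, SE 0.140, adjusted p = 0.0097). Against P5 the fall was 1.36-fold (-0.44, SE 0.156, adjusted p = 0.0378), which was called in 12 of 29 settings of the processing and read 0.29 with scaling between arrays. Without P5 replicate 2 it was -0.21 with an adjusted p of 0.414, and without P56 replicate 2 it was -0.36 with 0.103.

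The other Masp1 probes rose less between E14.5 and E18.5, by 0.52 for A_52_P247185 (SE 0.119, adjusted p = 0.00369) and by 0.93 for A_52_P216226 (SE 0.117, adjusted p = 5.21e-05). A_52_P216226 was dim in Cy5 before background correction, at 58.7, 68.6 and 71.4 at E14.5 and 96.6, 55.3 and 84.1 at P56. The dropped Masp1 probe had 43.7, 43.4 and 44.6 at E14.5. The size of changes of A_52_P216226, and of its differences from the brightest probe, is thus uncertain. The brightest probe changed more than either, by 2.11 (SE 0.177, adjusted p = 1.93e-06) and 1.70 (SE 0.168, adjusted p = 7.38e-06). Between E18.5 and P56 neither of them was called, at 0.14 (adjusted p = 0.309) and 0.08 (adjusted p = 0.566), so that the lower Masp1 level at P56 stood on 1 probe. In that comparison the brightest probe differed from them by -0.63 (SE 0.177, adjusted p = 0.00953) and -0.56 (SE 0.168, adjusted p = 0.0127). With arrays centred on their median instead of loess, both read lower at P56, at -0.55 and -0.68. That centring moved the median of all genes to -0.42 for P56 against E18.5 and to -0.47 for P56 against P5.

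C3 is the protein every complement pathway converges on. Its brightest probe, A_51_P110301, was spotted 10 times per array and saturated the scanner in the reference channel on 30 of 30 spots at E14.5, 25 of 30 at E18.5, 17 of 20 at P5 and 30 of 30 at P56. In the sample channel 10 of the 20 spots at P5 were saturated and none at the other stages. A saturated reference signal is a lower bound, so where the reference alone was saturated the ratio of this probe is an upper bound, and no size of change is given from it. The dimmer probe, A_52_P133594, was spotted once and never saturated. It is printed for that reason, and it lies at chr17:55435522-55435679 of mm7, minus strand, over 158 bases that include an intron.
C3 probe A_52_P133594: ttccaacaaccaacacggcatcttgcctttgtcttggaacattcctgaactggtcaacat
The 250 bases before the RefSeq start of C3 (GRCm38.p6 chr17:57228137-57228386, minus strand) are printed with the matches to the C/EBP core TTNNGNAA in capitals, since C3 is a textbook gene of the acute phase, in which C/EBP factors act.
C3 promoter: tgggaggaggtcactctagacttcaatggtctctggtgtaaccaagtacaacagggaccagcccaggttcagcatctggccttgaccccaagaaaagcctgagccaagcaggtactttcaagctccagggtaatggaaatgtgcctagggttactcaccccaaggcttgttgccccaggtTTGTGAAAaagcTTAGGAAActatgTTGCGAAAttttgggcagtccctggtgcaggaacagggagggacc
The motif was searched on both strands and matched at 3 places, from -70 to -63, from -58 to -51 and from -45 to -38, the last on both strands. A match to it was found in 36.8% of the 32851 promoter windows.

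By the brightest probe C3 read -2.69, -2.59 and -2.40 at E14.5, -0.19, -0.44 and -0.16 by E18.5, -0.15 and -0.38 on the P5 arrays, and -1.13, -0.96 and -0.71 on those of P56. These values are given as measured. For this probe the fit called a rise up to E18.5 and a lower ratio at P56 than at both E18.5 and P5, and did not call the step to P5, where its sample channel was itself in part saturated.

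The unsaturated C3 probe read -3.0, -3.21 and -3.21 at E14.5, -2.22, -1.68 and -1.75 by E18.5, -1.09 and -0.78 on the P5 arrays, and -1.79, -1.75 and -1.81 on those of P56. Its highest values were those of P5. Its changes were 1.26 (SE 0.140, adjusted p = 1.90e-05) up to E18.5, 0.94 (SE 0.157, adjusted p = 0.00269) to P5 and -0.84 (SE 0.157, adjusted p = 0.00108) from P5 to P56, and over the span from E18.5 to P56 it read 0.10 (SE 0.140, adjusted p = 0.557). Scaling between arrays removed all 3 calls, at 0.84 (adjusted p = 0.119), 0.03 (adjusted p = 0.961) and -0.51 (adjusted p = 0.297), and median centring took the span from E18.5 to P56 to -0.78 (adjusted p = 0.00327). Both probes were thus called higher at E18.5 and lower from P5 to P56, while a rise at P5 and a lower level at P56 than at E18.5 each stood on 1 of them.

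The terminal genes took separate courses. C6 binds cleaved C5 and starts the pore, C8a and C8b encode the alpha and beta chains of C8, and C9 forms the ring of the pore. C8a and C8b are neighbours on chromosome 4. In RefSeq on GRCm38.p6 they lie at chr4:104815679-104876487 and chr4:104766317-104804548, with 11130 bases between them and their 3′ ends facing each other. C6 and C9 both lie on chromosome 15, 1641300 bases apart. The probes of C6 (mm7 chr15:4626022-4626081) and C9 (mm7 chr15:6310121-6310180), both on the plus strand, are shown because both genes stood on 1 probe each, with dim Cy5 signals at E14.5.
C6 probe: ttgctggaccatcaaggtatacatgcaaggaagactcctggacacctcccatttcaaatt
C9 probe: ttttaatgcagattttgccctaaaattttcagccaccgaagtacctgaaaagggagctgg

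C8b had the largest rise of the 9 genes up to E18.5 and the only fall at P5. It read -3.55, -3.90 and -3.80 at E14.5, -0.45, -0.05 and -0.13 by E18.5, -1.96 and -1.82 on the P5 arrays, and 0.96, -0.26 and -0.15 on those of P56. The E18.5 and P56 arrays overlapped, with E14.5 and P5 below them and apart from each other. It rose 11.7-fold up to E18.5 (3.55, SE 0.259, adjusted p = 5.74e-07), fell 3.21-fold to P5 (-1.68, SE 0.290, adjusted p = 0.00326) and rose 4.2-fold to P56 (2.07, SE 0.290, adjusted p = 0.000139). P56 against E18.5 read 0.39 (SE 0.259, adjusted p = 0.207), and 0.00 without P56 replicate 1. Scaling between arrays took the fall at P5 to -3.21 with an adjusted p of 0.0831.

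C8a moved less than its partner. Its arrays read -3.40 and -3.38 at E14.5, where the spot of replicate 3 was marked as an outlier and left out, then -2.21, -1.97 and -1.93 by E18.5, -1.67 and -2.25 on the P5 arrays, and -0.93, -2.61 and -2.37 on those of P56. The rise up to E18.5 was 2.55-fold (1.35, SE 0.391, adjusted p = 0.0153), and it lost its call without E14.5 replicate 1 (1.34, adjusted p = 0.0682) and without E14.5 replicate 2 (1.36, adjusted p = 0.0673). To P5 it read 0.08 (SE 0.391, adjusted p = 0.92), and from P5 to P56 -0.01 (SE 0.391, adjusted p = 0.986). The log2 ratio of C8b minus that of C8a was -0.15 and -0.53 at E14.5, 1.76, 1.92 and 1.81 by E18.5, -0.29 and 0.43 on the P5 arrays, and 1.89, 2.34 and 2.22 on those of P56. Relative to the adult reference, C8b thus stood above C8a on all arrays of E18.5 and P56 and near it on those of E14.5 and P5. This difference was not tested.

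The 250 bases before the RefSeq starts of both C8 genes are shown because C8b was the only member called lower at P5 and its neighbour C8a was not called, C8b at chr4:104766067-104766316 on the plus strand and C8a at chr4:104876399-104876648 on the minus strand, where the RefSeq span of the gene begins upstream of the start used here. Capitals mark matches to the HNF1 core GTTAAT, the FOXA cores TGTTTGC and TGTTTAC, the C/EBP core TTNNGNAA and the TATA box TATAAA, searched on both strands, motifs of factors that act in hepatocytes and of the general start site.
C8b promoter: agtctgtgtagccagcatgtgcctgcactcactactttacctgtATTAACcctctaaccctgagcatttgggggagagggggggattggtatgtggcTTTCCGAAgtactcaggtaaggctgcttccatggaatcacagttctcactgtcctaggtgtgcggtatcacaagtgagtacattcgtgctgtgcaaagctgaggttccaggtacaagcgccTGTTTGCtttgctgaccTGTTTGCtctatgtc
C8a promoter: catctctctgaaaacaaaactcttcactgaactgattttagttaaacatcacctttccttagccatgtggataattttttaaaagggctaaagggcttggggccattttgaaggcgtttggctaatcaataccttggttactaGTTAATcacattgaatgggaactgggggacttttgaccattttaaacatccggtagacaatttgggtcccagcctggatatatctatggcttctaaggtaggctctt
C8b held GTTAAT once, TGTTTGC 2 times, from -32 to -26 and from -15 to -9, and TTNNGNAA once, while C8a held GTTAAT once. Of the 32851 promoter windows 6.43% held GTTAAT, 4.3% TGTTTGC, 3.17% TGTTTAC, 36.8% TTNNGNAA and 12.4% TATAAA. None of the matches in the C8 windows overlapped another.

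C9 read low before birth, with Cy5 signals near the dim end, and rose late. It read -3.35, -3.84 and -4.01 at E14.5, -3.62, -3.50 and -3.87 by E18.5, -3.48 and -2.27 on the P5 arrays, and 0.30, -1.18 and -0.89 on those of P56. The E14.5 and E18.5 arrays overlapped, and all 3 P56 arrays lay above every other. The C9 Cy5 signals before background correction were 56.8, 56.1 and 54 at E14.5 and 81.4, 67.6 and 64.2 by E18.5. These passed the background test but lay near the 43.7, 43.4 and 44.6 at E14.5 of the Masp1 probe dropped as too dim. In the authors' ratios C9 changed by 0.69 (adjusted p = 0.347) from E14.5 to E18.5 and by 4.52 (adjusted p = 0.000108) from E18.5 to P56. The size of the C9 changes thus depended on the processing. From E14.5 to E18.5 it read 0.07 (SE 0.368, adjusted p = 0.89), and it rose 4.87-fold from P5 to P56 (2.28, SE 0.411, adjusted p = 0.000823) and 8.40-fold from E18.5 to P56 (3.07, SE 0.368, adjusted p = 1.79e-05). The step from E18.5 to P5 was 0.79 (SE 0.411, adjusted p = 0.23), and it was 1.39 with an adjusted p of 0.0445 without P5 replicate 2 and 0.18 without P5 replicate 3. The 2 arrays of P5 also came from different scans.

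C6 moved in small steps, none of which was called. It read -2.04, -2.30 and -2.28 at E14.5, -1.78, -1.69 and -1.57 by E18.5, -1.58 and -0.99 on the P5 arrays, and 0.34, -0.98 and -1.09 on those of P56. The steps were 0.52 (SE 0.304, adjusted p = 0.181), 0.39 (SE 0.340, adjusted p = 0.486) and 0.71 (SE 0.340, adjusted p = 0.109), while from E18.5 to P56 it rose 2.14-fold (1.1, SE 0.304, adjusted p = 0.00737). Without P56 replicate 1 the last value was 0.64 (SE 0.161, adjusted p = 0.00464) and the first step was called too, at 0.52 with an adjusted p of 0.00997. The methods' t-test also called the first step (adjusted p = 0.021), and in the authors' ratios it read 1.13 (limma adjusted p = 0.146). At E14.5 the C6 signals in Cy5 were dim, at 71.7, 78.6 and 68 before background correction. The step from P5 to P56 was called without P56 replicate 3, at 0.97 with an adjusted p of 0.0473. With median centring the change from E18.5 to P56 was 0.22 with an adjusted p of 0.637.

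All 4 terminal genes among the members were highest on the same P56 array. Replicate 1 exceeded the mean of replicates 2 and 3 by 1.38 for C6, 1.56 for C8a, 1.16 for C8b and 1.33 for C9, which is 2.60-fold, 2.94-fold, 2.24-fold and 2.52-fold. These differences ranked 30, 21, 57 and 32 among 16660 genes with a value on all P56 arrays, of which 0.564% differed by 1 or more in this direction. The other 5 members differed by -0.30 for C3, -0.16 for Mbl1, 0.25 for Mbl2, 0.26 for Masp1 and 0.26 for Masp2, and Mbl2, Masp1 and Masp2 were thus highest on replicate 1 as well. From the processed signals of the scanner software the 4 differences were 2.08, 1.60, 1.1 and 1.59, among 4.11% of genes at 1 or more, and with median centring 1.75, 2.19, 1.77 and 1.87, among 2.96%. The other 5 then read 0.18 for C3, 0.32 for Mbl1, 0.72 for Mbl2, 0.81 for Masp1 and 0.80 for Masp2. Across the P56 arrays the SD of these 4 genes was 0.673 to 0.906. It was smaller for 2 other terminal genes, 0.461 for Hc, the gene of C5, and 0.223 for C8g, for the third C8 chain. A single array gives no test of this difference.

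Transcripts of the sex chromosomes moved with the same array, in genes chosen after their values were seen. Xist, the RNA that coats the inactive X chromosome of females, read -0.06 on P56 replicate 1, where it was not well above background, and 4.04 and 5.18 on replicates 2 and 3. Eif2s3y, a gene of the Y chromosome, read 1.53 on replicate 1 and -1.20 and -2.02 on the other 2, where it was not well above background. Xist was well above background on 6 of the 11 arrays, 1 of 3 at E14.5, 1 of 3 at E18.5, both at P5 and 2 of 3 at P56. The share of arrays with Xist thus differed between P5 and every other stage. Its part in the comparisons with P5, including the fall of C8b, was not tested. For the arrays with Xist before birth the values are given without a reading. At E18.5, replicate 1, with Xist at 4.45, read lowest for C6, C8a and C8b and between the others for C9. By the brightest probes it was also lowest for Mbl1 (-1.57) and Masp1 (-0.93), but highest for Mbl2 (-1.81) and Masp2 (-1.32). At E14.5, replicate 2, with Xist at 3.19, read lowest for C6 and C8b and between the others for C9. It was lowest for Mbl1, Mbl2, Masp1 and Masp2 as well, so low values there were not particular to the terminal genes. For C8a it read -3.38, against -3.4 on replicate 1, with replicate 3 left out. P56 replicate 1 also had the most spots above background of its stage. The part of either in the values of the terminal genes was not tested.

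**Figure D4:**
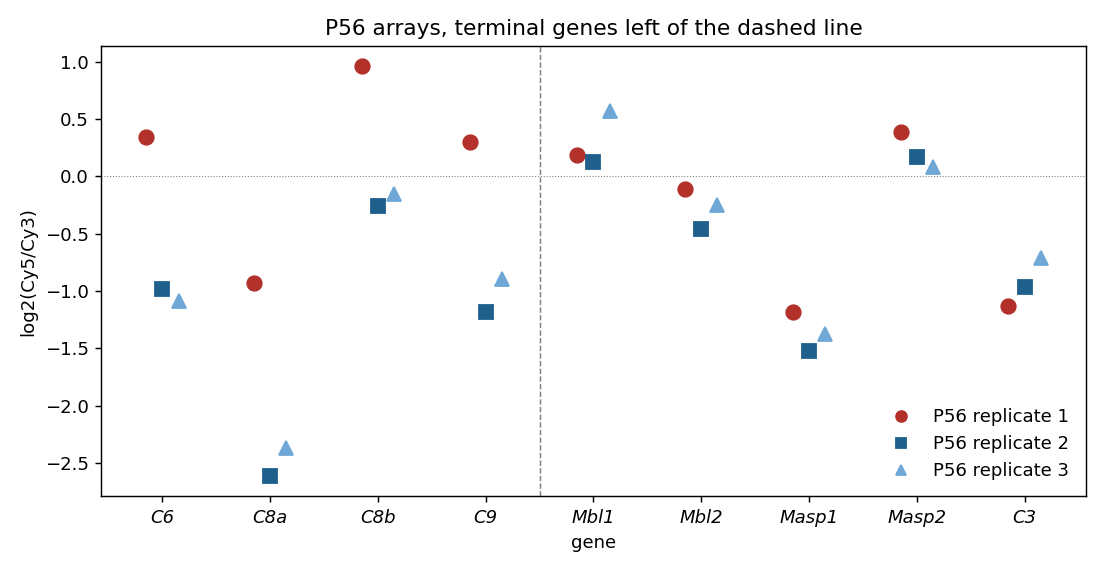
Log2(Cy5/Cy3) of the 9 genes on the 3 arrays of P56, with the terminal genes left of the dashed line. Replicate 1 stands 1.16 to 1.56 above the mean of the other 2 arrays for C6, C8a, C8b and C9, and within -0.30 to 0.26 of it for the rest.

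Without P56 replicate 1, the spread of the terminal genes narrowed and C8a changed its call. C8a was then 1.44-fold lower at P56 than at P5 (-0.53, SE 0.182, adjusted p = 0.038) and 1.36-fold lower than at E18.5 (-0.45, SE 0.166, adjusted p = 0.0373), where it had read 0.07 with all arrays. C9 kept its rise, at 1.84 from P5 (SE 0.324, adjusted p = 0.000794) and 2.63 from E18.5 (SE 0.296, adjusted p = 1.49e-05), and C8b its rise from P5, at 1.68 (SE 0.155, adjusted p = 7.59e-06). In both comparisons 5 members were then higher and 3 lower at P56.

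By the file headers the arrays fell into 4 scans, and 2 of these held more than 1 stage. E18.5 replicate 1 was scanned with the E14.5 arrays (scan 1), and P5 replicate 3 with those of P56 (scan 4). Within scan 1, E18.5 replicate 1 minus the mean of E14.5 was 1.56 for Mbl1, 2.41 for Mbl2, 2.57 for Masp1, 1.78 for Masp2, 1.18 for C8a and 3.30 for C8b, with 0.42 for C6 and 0.12 for C9. Within scan 4, the mean of P56 minus P5 replicate 3 was 1.71 for Mbl1, 1.11 for Mbl2, 1.54 for Masp2, 2.00 for C8b and 1.68 for C9, with -0.21 for Masp1. The saturated probe of C3 was higher at E18.5 within scan 1 and lower at P56 within scan 4. Between E18.5 and the later stages no scan was shared, so scan and stage cannot be told apart there.

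Over the 11 arrays some of the 9 genes shared a shape. Mbl1 and Masp2, which rose both before birth and after P5, correlated at r = 0.99, and Mbl2 with each of them at r = 0.97. The saturated C3 probe and the brightest Masp1 probe stood at r = 0.98, but C9 and the same C3 probe at r = 0.16. C6 and C9 correlated at r = 0.91, both being highest on P56 replicate 1 and dim in Cy5 at E14.5. These correlations are descriptions over arrays that share a reference and the stage differences. The genes most like each member by the same measure, other than members, were Dpp4 (0.997) and Gnmt (0.993) for Mbl1, Hrsp12 (0.998, 10 arrays) and D10Jhu81e (0.996) for Mbl2, Apof (0.996) and Fads2 (0.995) for Masp1, and Cebpb (0.998) and Etnk2 (0.996) for Masp2. For C3, again by its saturated probe, they were Pdzk1 (0.992) and Itpr2 (0.990), for C6 Gopc (0.968) and 1700001K19Rik (0.966), for C8a Lamp1 (0.978) and Cyp2d9 (0.959) over 10 arrays, for C8b Rassf6 and Pcyt2 (0.985 each), and for C9 Gpr155 (0.992) and BC024137 (0.991).

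The rest of the pathway was read from a list of 39 other complement genes, of which 38 were on the array and 35 passed the filter. Between E14.5 and E18.5, 27 rose, 1 fell and 7 were not called, with a median of 1.32, where 24.5% of all genes rose and 22.9% fell. All 4 other lectin pathway genes rose, as did 7 of 8 of the classical pathway, both of the alternative pathway, both terminal genes and 8 of 12 regulators, but 4 of 7 receptors. Among the largest rises were those of Cfi (3.44, SE 0.166, adjusted p = 2.43e-08), for the protease that inactivates C3b, Hc (3.06, SE 0.180, adjusted p = 9.41e-08), the mouse gene of component C5, and Vtn (2.80, SE 0.224, adjusted p = 1.18e-06), for vitronectin, which blocks insertion of the pore. Cd59b, for a membrane inhibitor of the pore, fell by 0.38 (SE 0.0892, adjusted p = 0.00381).

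Between E18.5 and P5, 9 of the 35 rose, 2 fell and 24 were not called, with a median of 0.03, where 7.31% of all genes rose and 6.38% fell. C4bp, for the plasma inhibitor of the classical and lectin convertase, rose by 1.15 (SE 0.170, adjusted p = 0.00122), Vsig4, for a macrophage receptor of C3b, by 1.06 (SE 0.220, adjusted p = 0.00884), Hc by 0.86 (SE 0.201, adjusted p = 0.0159) and Colec11, for a collectin that can start the lectin pathway, by 0.75 (SE 0.132, adjusted p = 0.00359). Fcnb, for a ficolin, changed by -0.86 (SE 0.163, adjusted p = 0.00558), and Cpn1, for the carboxypeptidase that inactivates anaphylatoxins, by -0.76 (SE 0.148, adjusted p = 0.00648). Only 3 of the 35 were called without P5 replicate 3.

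From P5 to P56, 6 of the 35 rose and 15 fell, with a median of -0.31, where 21.0% of all genes rose and 24.7% fell. C4bp rose by 3.31 (SE 0.170, adjusted p = 5.57e-08), C8g, for the gamma chain of C8, by 1.86 (SE 0.134, adjusted p = 8.24e-07) and Cd59b by 0.83 (SE 0.0997, adjusted p = 4.42e-05). Hc changed by -1.25 (SE 0.201, adjusted p = 0.000369), Cfp, for properdin of the alternative pathway, by -1.13 (SE 0.180, adjusted p = 0.00035), C1qc, for a chain of C1q, by -1.0 (SE 0.133, adjusted p = 9.55e-05) and Cfb, for factor B of the alternative pathway, by -0.96 (SE 0.172, adjusted p = 0.000794). Of the C8 chains, C8g and C8b thus rose in this step, and C8a read -0.01.

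From E18.5 to P56, 10 of the 35 rose and 12 fell, with a median of -0.23, shares near those of all genes, of which 31.3% rose and 33.5% fell. C4bp (4.46, SE 0.152, adjusted p = 1.17e-09), C8g (2.48, SE 0.120, adjusted p = 1.43e-08) and Cd59a (1.09, SE 0.132, adjusted p = 2.00e-05) were among those that rose most. Fcnb (-1.63, SE 0.146, adjusted p = 1.72e-06), Itgam, for a chain of complement receptor 3 (-1.58, SE 0.186, adjusted p = 1.56e-05), Fcna, for the other ficolin (-1.32, SE 0.156, adjusted p = 1.58e-05) and Vtn (-1.22, SE 0.224, adjusted p = 0.000485) fell most. With median centring 4 of the 35 rose and 18 fell in this comparison, and 4 rose and 24 fell from P5 to P56.

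**Figure D5:**
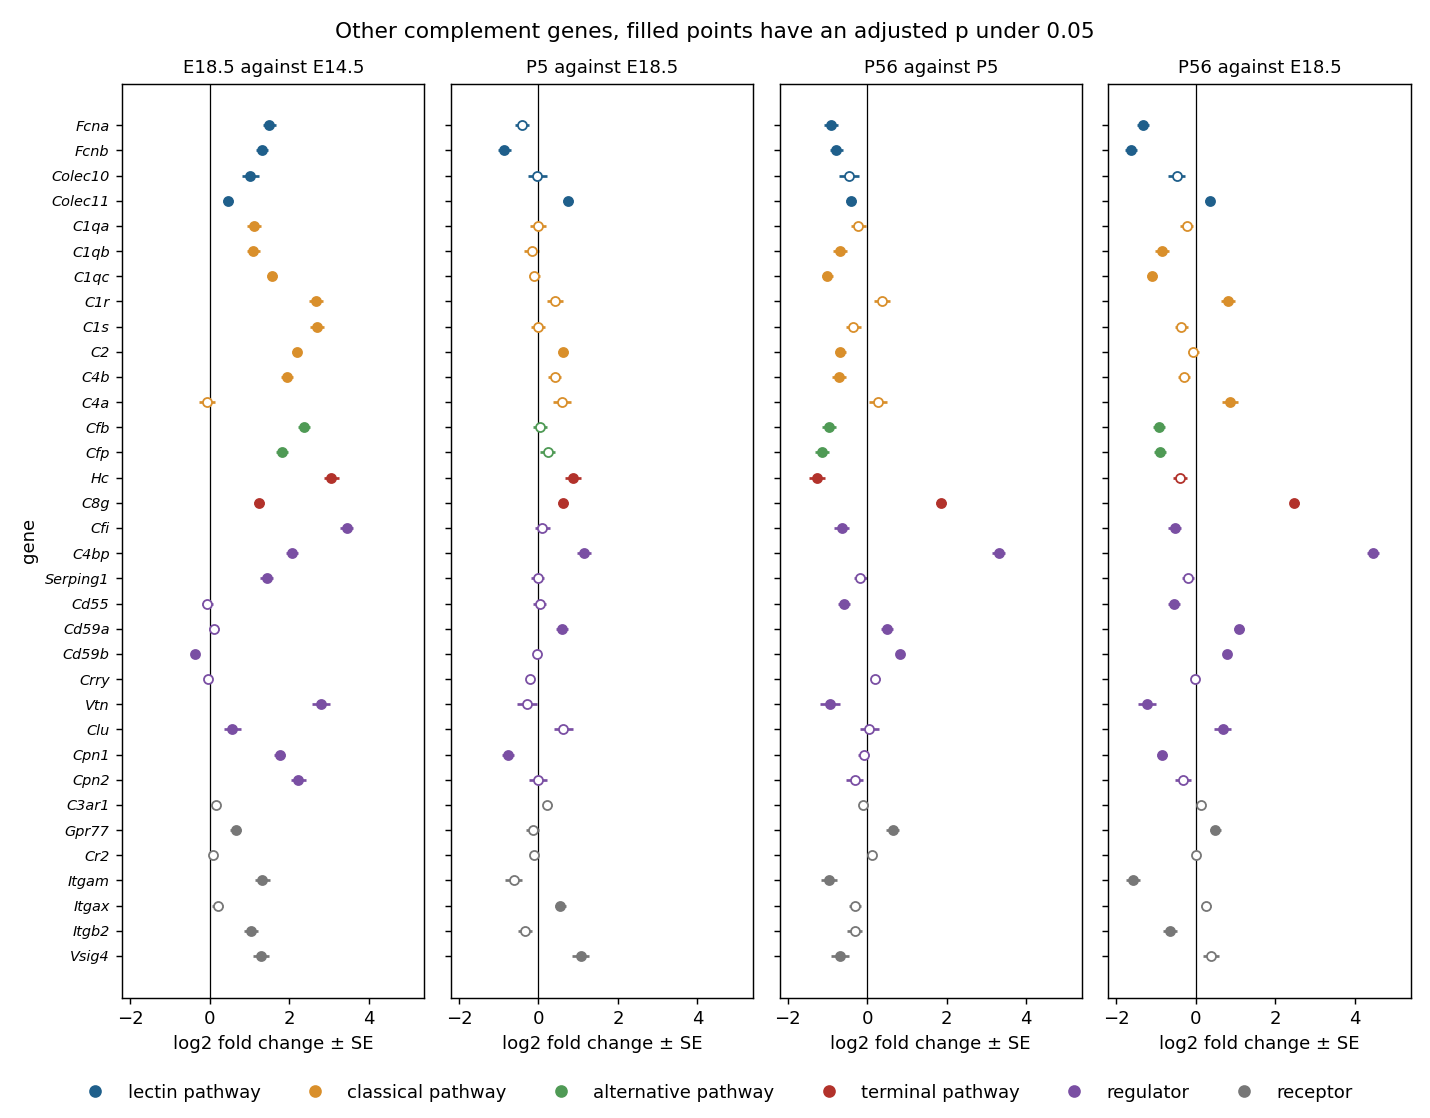
Log2 fold change with its standard error for 34 of the 35 other complement genes in the 4 comparisons, coloured by role and filled where the adjusted p was under 0.05. In the first panel 26 filled points lie right of 0 and 1 left of it, and for P56 against P5 5 right and 15 left.

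Markers of other liver cells moved over the same stages. Between E14.5 and E18.5, 9 of 10 macrophage markers, 6 of 6 granulocyte markers, 6 of 8 endothelial and 3 of 5 biliary markers rose, 3 of 10 erythroid markers rose and 3 fell, and 2 of 8 stellate and mesenchymal markers rose and 3 fell. On E14.5, E18.5 and P56 arrays, macrophage markers averaged -2.94 to -2.57, -1.39 to -1.13 and -2.43 to -1.68, and granulocyte markers -0.12 to 0.16, 2.61 to 2.76 and -1.71 to -1.11. From P5 to P56, 9 of 10 erythroid and 6 of 6 granulocyte markers fell, as did 5 of 10 macrophage, 7 of 8 endothelial, 3 of 8 stellate and mesenchymal and 2 of 5 biliary markers, while of 10 hepatocyte markers 3 rose and 5 fell. The granulocyte marker Ela2 was well above background on 0 of 3 arrays at P56. The part of cell composition in the changes of the 9 genes was not tested.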

How the data were processed

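RNA of normal mouse liver was hybridised by the authors to 2-colour Agilent arrays with an adult liver reference. The intensity values deposited are mean spot and median local background signals per channel, from Feature Extraction 9.5.1.1, together with the software's processed signals. The authors also deposited gene-level log2 ratios, normalized by lowess, which served as an alternative only. Here, normexp background correction (offset 50) and loess within each array were run in limma 3.58.1 and R 4.3.3. Outlier spots were dropped and spots of a probe averaged. A probe was kept where its Cy5 signal passed the software's background test in every replicate of some stage and no stage lacked more than 1 value, and a gene was read from its brightest probe. Stage means over 11 arrays were fitted with lmFit and eBayes and adjusted by Benjamini-Hochberg over 16705 genes, 264 of them with a missing value, at a threshold of 0.05. The fit was tested on simulated data. Probe coordinates are those of the array files (mm7), and gene coordinates and promoters come from RefSeq. Promoters were found for 8 of the 9 genes.

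The members and gene lists were chosen with earlier results of these data known. Genes named are the 9 members, per comparison up to 4 rises and 4 falls among the other complement genes, the 2 most similar genes per member, and Alb1, Afp and Hnf4a. Single values of 2 listed genes are not reported here. The sex chromosome genes and the test between probes were added after results had been seen. Marker lists were hepatocyte, erythroid, macrophage, endothelial, stellate and mesenchymal, biliary and granulocyte. Alternatives were other background corrections, normalizations, filters and probe choices, the Cy5 channel alone, the authors' table, the replicate number or scan as a block, the methods' t-test, a fold threshold, and each array left out. The number of arrays limits the precision. Figures were drawn with matplotlib in Python.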

Additional observations from a re-analysis of the deposited data

How the results depend on the processing

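The count of called members kept within 1.5 times its value in most settings. Scaling between arrays left 3 members called between E14.5 and E18.5, 0 between E18.5 and P5 and 4 between E18.5 and P56. By the methods' t-test with Benjamini-Hochberg adjustment 0 were called from E18.5 to P5 and 0 from P5 to P56, while 2 and 5 passed it at an unadjusted p under 0.05 and limma called 2 and 7. With a log2 fold of at least 1 the counts were 1 and 4 in these comparisons, and from E18.5 to P5 the authors' normalized ratios gave 1. For the other complement genes, scaling between arrays gave 11, 0 and 12 in the 3 successive steps, where limma called 28, 11 and 21. In the step from E18.5 to P5 the processed signals gave 7, the authors' ratios 0, the t-test 1 and the fold threshold 2, from P5 to P56 the authors' ratios 12, the t-test 1 and the fold threshold 5, and from E18.5 to P56 the fold threshold 9. Over all genes limma called 7913, 2286, 7621 and 10823 in the comparisons E18.5 against E14.5, P5 against E18.5, P56 against P5 and P56 against E18.5. Scaling gave 3132 and 385 in the first 2, the authors' ratios 4798, 292 and 5040 in the first 3, median centring 1476 for P5 against E18.5, the t-test 57 there and 303 for P56 against P5, the fixed scan block 4680 for the latter, and the fold threshold 1851, 450, 2267 and 3656. Median centring moved the split of higher against lower calls from 3503 and 4118 to 653 and 8855 for P56 against P5, and from 5224 and 5599 to 1580 and 8974 for P56 against E18.5. The cause of these differences was not tested, except that the fold threshold asks more by construction.

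Leaving out 1 array at a time gave 6 to 8 members called from E14.5 to E18.5, 2 to 3 from E18.5 to P5, 6 to 8 from P5 to P56 and 7 to 8 from E18.5 to P56, and 27 to 28, 3 to 13, 16 to 24 and 20 to 29 other complement genes. Over all genes the ranges were 6490 to 8487, 941 to 3764, 4722 to 8258 and 9745 to 11198. With the replicate number as a block, 7, 2, 6 and 7 members were called, where Masp1 from P5 to P56 lost its call (-0.47, adjusted p = 0.0533). Deviations from the stage mean of same-numbered arrays correlated at r between -0.30 and 0.09. With so few arrays per stage this check cannot exclude that the number pairs the samples.

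Directions of called values turned in these cases. C3 from E18.5 to P5 read 0.47 with the mean over probes. With saturated spots left out it read 0.94 in that step and 0.10 from E18.5 to P56, both being values of its unsaturated probe. Scaling gave -0.74 for Mbl2 from E18.5 to P5 and 0.29 for Masp1 from P5 to P56. C8a from E18.5 to P56, 0.07 with all arrays and not called, became a called fall of -0.45 without P56 replicate 1, and its values with 1 array left out ran from there to 0.39. Median centring, which moved the median of all genes to -0.42 from E18.5 to P56 and to -0.47 from P5 to P56, gave, from E18.5 to P56, -0.78 for C3 probe A_52_P133594, -0.68 and -0.55 for Masp1 probes A_52_P216226 and A_52_P247185 and -0.38 for Masp2 probe A_52_P569276, and from P5 to P56 -0.65 for A_52_P216226. Among gene values not called under either setting, scaling turned the step from E18.5 to P5 to -1.55 for C9, -0.63 for C6, -1.23 for Mbl1, -1.28 for Masp2 and -2.13 for C8a, the step from P5 to P56 to 1.46 for C8a, and the changes to P56 from E18.5 for C8a to -0.66 and between the first 2 stages for C9 to -0.22. Median centring turned C6 from P5 to P56 to -0.14 and, from E18.5 to P56, C8b to -0.29 and C8a to -0.39, and from E18.5 to P5 C3 to 0.45 and Masp1 to 0.12. Scan as a fixed block could be fitted only for E14.5 to E18.5 and P5 to P56. The authors' ratios correlated at 0.794 to 0.920 with the arrays, and for E14.5 replicate 1 and P5 replicate 3 slightly better with another array of the stage.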
